A study of Saccharomyces cerevisiae with 16 samples.

Results

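The 10 genes described here encode enzymes that make chorismate and tryptophan in budding yeast (Saccharomyces cerevisiae). They are TRP1 (YDR007W), TRP2 (YER090W), TRP3 (YKL211C), TRP4 (YDR354W), TRP5 (YGL026C), ARO1 (YDR127W), ARO2 (YGL148W), ARO3 (YDR035W), ARO4 (YBR249C) and ARO7 (YPR060C), 10 of the 7125 genes in the table. They were chosen by pathway membership, and the set was put forward with the levels of TRP1 in H3T11A and YBL574 cells already known. The difference between those strains is therefore given as a description. Genes past the adjusted p threshold are counted there without p-values, and nothing is read from those counts. Other earlier results of these data were also known when the genes and the lists below were chosen. The adjusted p-values of the other comparisons are therefore descriptive as well. RNA sequencing of total RNA gave 16 libraries from 12 biological replicates, 2 in each of 6 groups, and every gene below has a value in all of them.

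The labels give 3 groups the genotype wt, namely control, serine (a serine treatment) and WT. The other groups are CK2 (genotype ck2), YBL574 (a strain whose native histone H3 and H4 genes are deleted and whose histones come from a plasmid) and H3T11A (genotype t11a, in which the plasmid-borne histone H3 carries alanine in place of threonine at residue 11). The residue is the site phosphorylated by SESAME, a complex of pyruvate kinase and serine metabolic enzymes. Per the labels every culture grew in YPD, a rich medium, and was harvested in log phase. For YBL574 and H3T11A, 2 technical libraries per RNA extraction were averaged. Nothing says which replicates came from separate cultures, so the p-values measure the spread between these samples, which may be technical.

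Fitted read totals were 8774474 to 18078535 per library. Each result is a level in RPKM (reads per gene length, scaled to the library's read total) or a difference on the log2(RPKM + 1) scale, and a gene passed the test at an adjusted p under 0.05. CKA1, a catalytic subunit of casein kinase 2, was at 57.5 and 66.9 RPKM in WT and at 0.06 and 0.07 RPKM in CK2 cells, whereas CKA2 was between 103 and 120.0 RPKM in all 4 replicates. HIS3 and URA3, common selection markers, were at 20.0 and 21.7 RPKM and at 37.4 and 39.1 RPKM in control, but at 0.201 RPKM or less in WT and CK2 cells. Control and WT thus differed in expressed markers although both carry the genotype wt, and comparisons across the pairs control and serine, WT and CK2, YBL574 and H3T11A cannot tell strain from experiment. The log2 difference between replicates had an SD over genes of 0.54 in H3T11A and 0.48 in CK2, and of 0.25 to 0.30 in the other groups.

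The shikimate pathway condenses erythrose 4-phosphate with phosphoenolpyruvate and ends in chorismate, the last precursor common to phenylalanine, tyrosine and tryptophan. Aro3 and Aro4 catalyse the first step and are inhibited by phenylalanine and by tyrosine respectively, the pentafunctional Aro1 catalyses the middle steps, and Aro2 forms chorismate. Trp2 and Trp3 commit chorismate to tryptophan as anthranilate synthase, Trp4 adds a phosphoribosyl group, Trp1 isomerises the product, Trp3 also closes the indole ring, and Trp5 joins indole to serine. Aro7, chorismate mutase, leads chorismate to phenylalanine and tyrosine instead. Many amino acid biosynthesis genes are activated by the transcription factor Gcn4, which binds TGACTCA and related sequences, while TRP1 and ARO7 are known as genes outside this general control.

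The genes lie on 6 chromosomes of the R64 assembly (sacCer3). TRP1 is at chrIV:461842-462516, ARO3 at chrIV:521816-522928, ARO1 at chrIV:704484-709250 and TRP4 at chrIV:1184747-1185889. ARO2 is at chrVII:226399-227529 and TRP5 at chrVII:446412-448535. TRP2 is at chrV:337949-339472, TRP3 at chrXI:36699-38153, ARO4 at chrII:716882-717994 and ARO7 at chrXVI:674861-675631. All 10 are protein-coding genes.

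The 400 bases before each start codon were searched on both strands for TGACTC, the core of the Gcn4 sequence, and for TGACTCA, which contains the core. The core was found in 5 of the 10 genes and in 10.3% of 6001 nuclear protein-coding genes, and the longer form was found in 4 of the 10 and in 3.4% of those genes. The 5 stretches are shown because they separate genes of the pathway by a feature that the choice did not use. They are written 5′ to 3′ along the coding strand, with the match in capitals.
TRP2: agtgatttgcTGACTCAttacgatttt
TRP3: aatggctcgtTGACTCAttctaatcta
TRP4: ctacgcagatTGACTCtctaaaaaat
ARO1: gtcatgcataTGACTCAtcccgaacat
ARO4: tactgcgaaaTGACTCAacgatgaaat
They lie at chrV:337777-337803 (plus strand), chrXI:38260-38286 (minus), chrIV:1184572-1184597 (plus), chrIV:704251-704277 (plus) and chrII:718290-718316 (minus), in the same order. The last matched base was 156 bases before the start codon in TRP2, 117 in TRP3, 160 in TRP4, 217 in ARO1 and 306 in ARO4. TRP1, TRP5, ARO2, ARO3 and ARO7 had no match to these letters in this window, which says nothing of other Gcn4 sites.

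TRP1 had the widest range of the 10 genes, with every group separate from its neighbours in the order of levels. It was at 97.1 and 99.2 RPKM in H3T11A, at 61.9 and 54.7 RPKM in WT and at 40.1 and 43.1 RPKM in CK2. It was at 11.5 and 10.2 RPKM in serine, at 8.97 and 8.96 RPKM in control, and at 0.964 and 0.392 RPKM in YBL574. The 3 groups labelled wt thus fell into a high level (WT) and a low level (control and serine). In YBL574 the 4 libraries together held 27 reads in TRP1, or 0.682 RPKM (95% Poisson interval 0.45 to 0.992, counting error only), against 3102 reads in the 4 H3T11A libraries. The pooled level was 144 times higher in H3T11A than in YBL574, with bounds of 98.7 and 217 set by the counting interval of the YBL574 reads.

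The study's strain list gives the histone strains a deletion allele of TRP1 in the chromosome and a TRP1-marked histone plasmid. A supplementary legend gives YBL574 itself an HHF1-HHT1 plasmid and does not name its marker. By that legend, H3T11A was made by bringing a mutant plasmid into YBL574 and selecting for loss of the wild-type one. Selection used α-aminoadipic acid or 5-FOA plates, and the legend does not say which served YBL574. The paper describes 5-FOA as a substrate that kills cells when they express URA3. The level in H3T11A and the near absence in YBL574 are the measured values, and which plasmid the sequenced YBL574 cells held was not tested. Of 5 other marker genes, URA3, HIS3, LEU2 and LYS2 were lower in H3T11A and past the threshold, and MET17 was not past it. Of all genes tested, 40.7% were past it. URA3 was at 278 and 379 RPKM in YBL574 and at 85.4 and 99.6 RPKM in H3T11A, and HIS3 at 213 and 189 RPKM and at 82.5 and 58.8 RPKM.

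Genes beside TRP1 were listed for comparison. SOK1, the gene before TRP1, was at 32.7 and 32.8 RPKM in YBL574 and at 40.5 and 34.9 RPKM in H3T11A. GAL3, which follows TRP1 and encodes the sensor of galactose, was at 3.22 and 3.91 RPKM in YBL574 and at 2.24 and 2.20 RPKM in H3T11A. Neither neighbour had a difference near that of TRP1. The exception was YDR008C, at 0.087 and 0.079 RPKM in YBL574 and at 8.75 and 9.79 RPKM in H3T11A. Its systematic name places it beside TRP1 on the other strand. Whether it overlaps TRP1, and so shares reads with it if counting ignored strand, was not examined. Its level is therefore not taken as separate from that of TRP1.

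**Figure D1:**
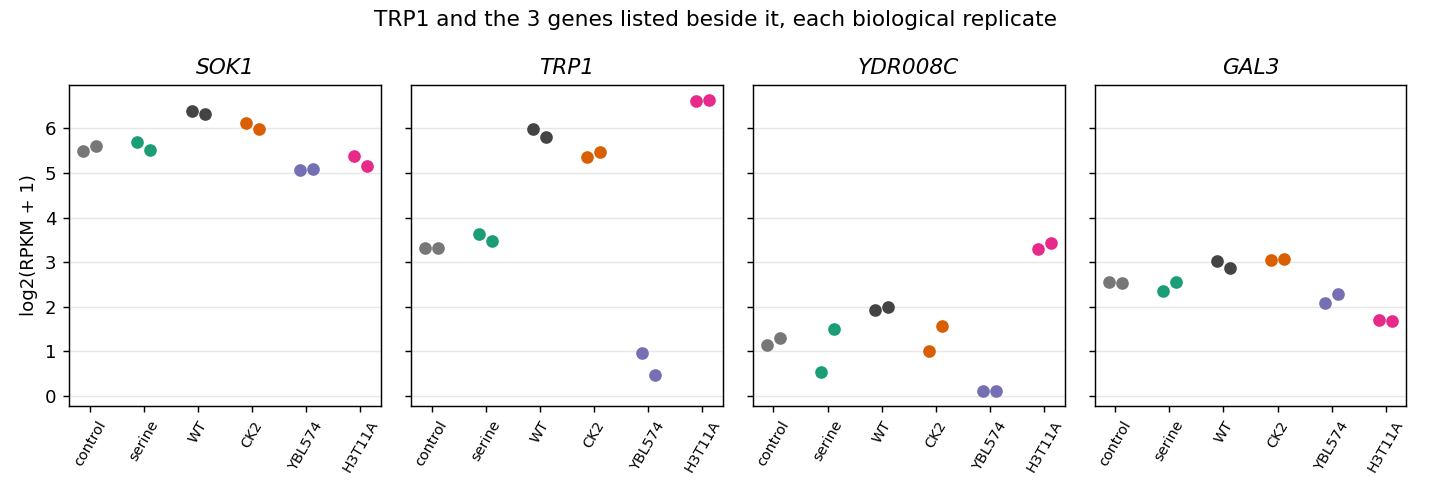
Level of TRP1 and of SOK1, YDR008C and GAL3 as log2(RPKM + 1) in each of the 12 biological replicates, with 2 points per group. TRP1 and YDR008C are near 0 in YBL574 and highest in H3T11A, whereas SOK1 and GAL3 differ far less between those strains.

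TRP2, the partner of TRP3 in anthranilate synthase, spanned a narrower range. It was at 118 and 113 RPKM in CK2, at 115 and 107 RPKM in YBL574, and at 91.5 and 120 RPKM in H3T11A. These groups overlapped and lay above WT (82.2 and 79.5 RPKM), which lay above serine (62.8 and 67.6 RPKM) and control (65.0 and 57.1 RPKM). Serine and control overlapped.

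TRP3 was highest in YBL574, at 91.5 and 89.1 RPKM. In H3T11A it was at 56.2 and 56.3 RPKM, inside the range of WT (58.7 and 52.8 RPKM), and it was lowest in CK2, at 38.4 and 40.7 RPKM. TRP4, whose product uses phosphoribosyl pyrophosphate, was likewise highest in YBL574, at 90.8 and 88.0 RPKM, and was at 37.0 and 20.0 RPKM in H3T11A, overlapping CK2 (31.5 and 29.6 RPKM). Both genes thus had a single high group, YBL574, separate from all others.

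TRP5, tryptophan synthase, differed from the other genes of its branch. It was at 250.4 and 523 RPKM in H3T11A, the largest gap between replicates among the 10 genes (1.06 on the log2 scale), and at 253 and 231 RPKM in YBL574, so these groups overlapped. It was at 158 and 157 RPKM in WT and at 106 RPKM in both CK2 replicates, the lowest group. Technical libraries of 1 RNA extraction also differed. In all 4 extractions the second library gave more TRP5 than the first, by 0.30 to 0.44 on the log2 scale, as it did for TRP3, ARO1, ARO2, ARO4 and ARO7, by 0.04 to 0.33. It gave less TRP2 in all 4, by -0.39 to -0.26, while TRP1, TRP4 and ARO3 had no common direction.

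Among the shikimate genes, ARO3 and ARO4 were the most variable. ARO4 was at 466 and 426 RPKM in YBL574, at 263 and 231 RPKM in WT, and at 154 and 139 RPKM in CK2. It was at 142 and 119 RPKM in H3T11A, overlapping CK2, and at 111 and 97.2 RPKM in control, overlapping serine (101 and 112 RPKM). ARO3 was ordered in the same way, from 415 and 491 RPKM in YBL574 to 136 and 137 RPKM in control. ARO1 varied least, from 97.2 RPKM in H3T11A to 173 RPKM in YBL574, and ARO2 ran from 102 RPKM in control to 308 RPKM in YBL574. ARO7, of the phenylalanine and tyrosine branch, did not share the high YBL574 level of the shikimate genes. It was highest in WT, at 59.8 and 57.7 RPKM, and at 36.2 and 40.9 RPKM in YBL574.

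**Figure D2:**
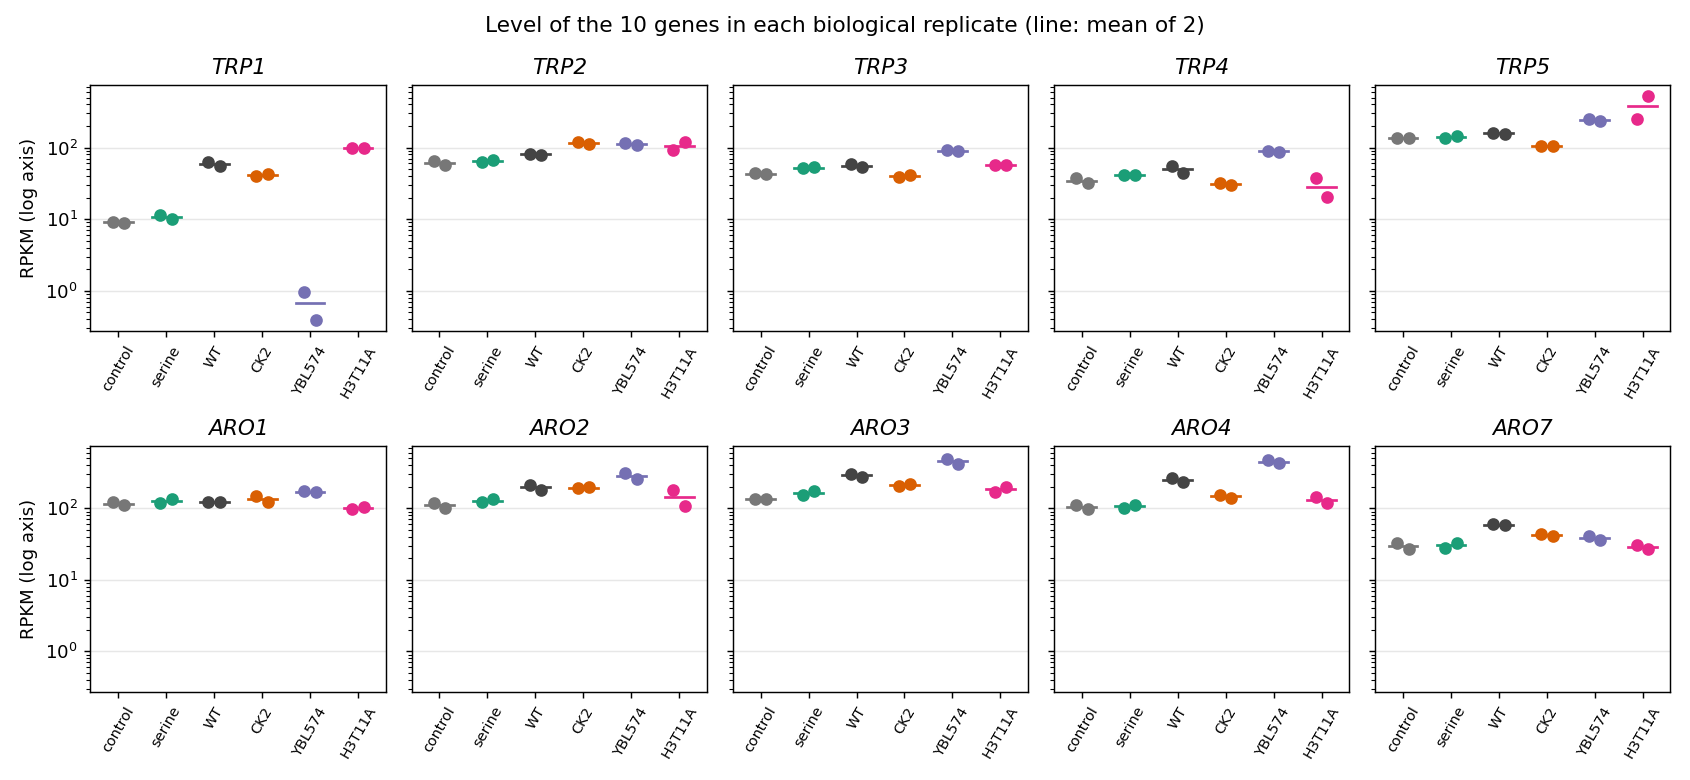
Level of each of the 10 genes in RPKM on a log axis, 1 panel per gene, with a point for each of the 2 biological replicates of a group and a line at their mean. YBL574 is the highest group for TRP3, TRP4, ARO1, ARO2, ARO3 and ARO4 and the lowest for TRP1.

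Serine-treated cells were compared with control cells; serine is the amino acid that Trp5 joins to indole. None of the 10 genes passed the test (limma, 1.34% of 6727 genes passed, or 90, and 934 had an unadjusted p under 0.05). All 10 had log2 differences above 0, between 0.03 and 0.26, with a median of 0.17 against 0.00 over all genes tested. TRP3 had the smallest adjusted p, 0.168, with a difference of 0.26 ± 0.08 (SE) and separate groups (51.8 and 52.7 RPKM in serine, 43.4 and 43.3 RPKM in control). TRP1 differed by 0.25 ± 0.15 (adjusted p = 0.57). TRP5 differed by 0.06 ± 0.27 (adjusted p = 0.974), and ARO4 and ARO7, at 0.03 each, changed sign when control replicate 3 or serine replicate 3 was left out.

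Genes around the pathway were counted from lists of its neighbours. The lists were chosen with earlier results of these data known, so the adjusted p-values of listed genes are descriptive. Of all genes tested, 1.34% passed in serine against control. Of 4 genes of the phenylalanine and tyrosine branch, 1 fell in serine. This was ARO9, an aromatic aminotransferase of amino acid breakdown, at 155 and 133 RPKM in control and at 7.49 and 8.03 RPKM in serine (log2 difference -4.05 ± 0.25, adjusted p = 0.00013). Of 8 genes of tryptophan uptake and breakdown, 1 rose, the amino acid permease TAT1, at 3.57 and 3.16 RPKM in control and at 15.4 and 12.2 RPKM in serine (1.75 ± 0.24, adjusted p = 0.0104). None of 11 genes of precursor supply, none of 4 regulators and neither of ABZ1 and ABZ2, which take chorismate to p-aminobenzoate, passed, GCN4 being at 852 and 868 RPKM in control and at 759 and 757 RPKM in serine.

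CK2 was compared with WT. Of the 10 genes, 5 fell and 1 rose, against 31.0% of all genes tested. The median log2 difference was -0.47, against 0.01 over all genes. In the shikimate pathway, ARO4 fell by 0.75 on the log2 scale (SE 0.13, adjusted p = 0.00297) and ARO3 fell by 0.44 (SE 0.13, adjusted p = 0.0271). ARO1 (0.15 ± 0.11, adjusted p = 0.333) and ARO2 (-0.01 ± 0.21, adjusted p = 0.99) did not pass, and the sign of ARO2 turned under upper-quartile scaling.

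In the tryptophan branch, TRP3 fell by 0.48 (SE 0.08, adjusted p = 0.00246) and TRP1 fell by 0.48 (SE 0.15, adjusted p = 0.0396). TRP4 (-0.67 ± 0.23, adjusted p = 0.0565) and TRP5 (-0.57 ± 0.27, adjusted p = 0.136) did not pass although their groups were separate. Their SE comes from 1 spread per gene over all 6 groups, and the TRP5 replicates were farthest apart in H3T11A. With only CK2 and WT in the limma fit, TRP4 (adjusted p = 0.0161) and TRP5 (adjusted p = 0.00355) passed, where 2938 of 6727 genes passed in all. ARO7 fell by 0.47 (SE 0.12, adjusted p = 0.0188). The count rested on all 4 replicates: it fell without any 1 of them, and so did the number of all genes tested that passed. ARO4 and TRP3 were the genes that passed under each of the 11 alternatives run.

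TRP2 was the gene that rose in CK2, by 0.51 ± 0.13 (adjusted p = 0.0173), with separate groups, and its adjusted p was 0.0629 to 0.0888 with 1 replicate left out. It lies on chromosome V, whose 289 genes with a value had a median log2 difference of 0.91 (quartiles 0.61 and 1.1), against -0.01 for 5657 genes of the other chromosomes. TRP2 was 0.39 below the chromosome V median, and 232 of the 289 genes had a larger difference. The other 9 genes lie elsewhere. The part of the chromosome-wide shift in the TRP2 result was not tested.

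**Figure D3:**
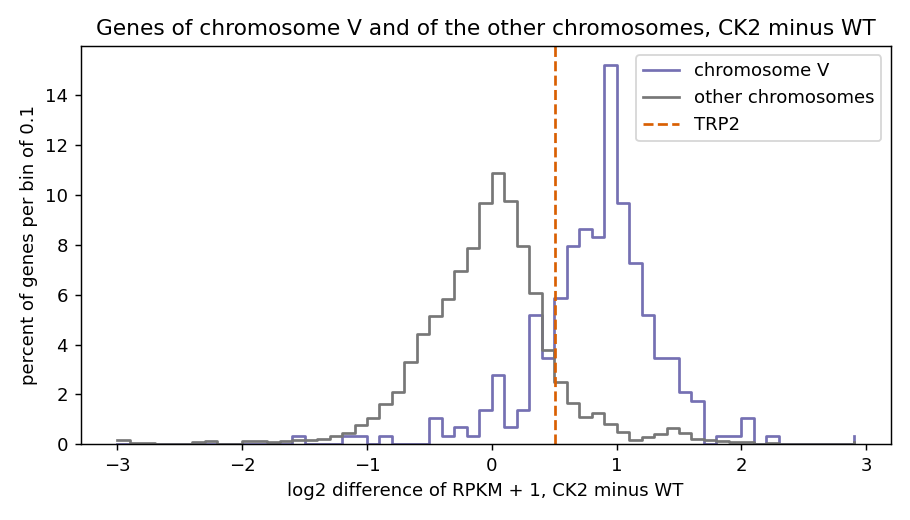
Log2 difference between CK2 and WT for genes of chromosome V and of the other chromosomes, as the percent of genes in each bin of 0.1. The chromosome V genes centre at 0.91 and the others at -0.01, and TRP2 (dashed line, 0.51) lies on the low side of the chromosome V genes.

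GCN4, also on chromosome V, rose in CK2, from 765 and 758 RPKM in WT to 1291 and 1263 RPKM (0.74 ± 0.15, adjusted p = 0.00554). This difference was below the chromosome V median of 0.91, and Gcn4 protein was not measured. Of the 4 regulators, 3 rose, the others being PHO2 (0.72 ± 0.20, adjusted p = 0.0259) and ARO80, the activator of ARO9 (0.39 ± 0.12, adjusted p = 0.0348). ARO9 itself fell, from 50.5 and 42.0 RPKM to 14.7 and 11.7 RPKM (-1.74 ± 0.25, adjusted p = 0.00123), and so did PHA2, prephenate dehydratase (-0.51 ± 0.10, adjusted p = 0.00602). Of 11 genes that supply erythrose 4-phosphate and phosphoribosyl pyrophosphate, 7 fell and 1 rose. The transketolase genes TKL1 (-1.08 ± 0.18, adjusted p = 0.00226) and TKL2 (-2.38 ± 0.37, adjusted p = 0.00167) were among those that fell. PRS2, on chromosome V as well, was the one that rose (0.73 ± 0.08, adjusted p = 0.000356). Of 8 genes of uptake and breakdown, 2 fell, BNA2 and BNA6 of the kynurenine pathway (adjusted p = 0.012 and 0.0333), a share below the 31.0% of all genes tested that passed.

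Control was compared with WT because both carry the genotype wt. All 10 genes had a lower mean in control and 7 of them passed, against 59.0% of all genes tested, while the median over all genes was -0.17. TRP1 fell by 2.57 (SE 0.15, adjusted p = 2.28e-06), or 2.40 below that median. ARO4 fell by 1.24 (SE 0.13, adjusted p = 6.05e-05), ARO3 fell by 1.07 (SE 0.13, adjusted p = 0.000115), ARO7 fell by 0.96 (SE 0.12, adjusted p = 0.000176) and ARO2 fell by 0.82 (SE 0.21, adjusted p = 0.0088). These 5 passed under both other scalings. ARO2 no longer passed without control replicate 3 or without WT replicate 2 (-0.72 in both cases, adjusted p = 0.0613), which left 5 of the 10 genes passing.

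TRP2 (-0.40 ± 0.13, adjusted p = 0.0257) and TRP3 (-0.35 ± 0.08, adjusted p = 0.00466) passed with the deposited scaling, but with median-of-ratios scaling, which moves the median over all genes to -0.02, their differences were -0.24 and -0.19 and did not pass. TRP2 also did not pass without control replicate 3 (-0.31, adjusted p = 0.158), WT replicate 2 (-0.38, adjusted p = 0.108) or WT replicate 3 (-0.42, adjusted p = 0.0755). The sign of ARO1 (-0.07 ± 0.11) turned under that scaling, to 0.09. Of the genes called, 37.5% were higher in control with the deposited scaling and 48.9% with median-of-ratios scaling. Of the 8 genes of uptake and breakdown, 2 were higher in control, BNA2 (1.55 ± 0.15, adjusted p = 4.59e-05) and BNA5 (0.60 ± 0.12, adjusted p = 0.00203). The permease genes TAT1 (-5.68 ± 0.24, adjusted p = 4.17e-07) and TAT2 (-0.86 ± 0.21, adjusted p = 0.0075) were lower. The share of these 8 genes that passed was below the 59.0% of all genes tested.

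YBL574 was set beside WT as a description, since YBL574 is the strain in which the TRP1 level was known. It shares WT with the comparisons above and YBL574 with the one below. Leaving out TRP1, 7 of the other 9 genes were past the threshold with the deposited scaling, 6 higher and 1 lower in YBL574, beside 54.9% of all genes tested, and nothing is read from this count. The median over all genes was -0.36. Of the genes called, 11.7% were higher, against 58.6% with upper-quartile and 50% with median-of-ratios scaling, which move that median to 0.07 and 0.02. Relative to the median, the differences of 8 genes ran from 0.81 for TRP2 to 1.21 for TRP4 and ARO4, and they were above 0 under all 3 scalings. TRP1 was at -4.80 relative to the median. ARO7 was at -0.24 and was past the threshold only with the deposited scaling.

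H3T11A was set beside YBL574, its parent strain. The strains also differed in TRP1 level, and which histone plasmid the sequenced YBL574 cells held was not tested. An effect of the mutation cannot be told apart from these differences. Apart from TRP1 (5.91 ± 0.15), 8 of the remaining 9 genes had lower levels in H3T11A. The differences were -1.77 ± 0.13 for ARO4, -1.68 ± 0.23 for TRP4, -1.30 ± 0.13 for ARO3, -0.99 ± 0.21 for ARO2, -0.75 ± 0.11 for ARO1, -0.67 ± 0.08 for TRP3, -0.40 ± 0.12 for ARO7 and -0.08 ± 0.13 for TRP2, whose sign turned under upper-quartile scaling. TRP5 was at 0.58 ± 0.27, with overlapping groups, and this value was 0.05 without H3T11A replicate 3 and 1.11 without H3T11A replicate 1.

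Leaving out TRP1, whose level here prompted the set, 7 of the other 9 genes were past the threshold, all lower, where 40.7% of all genes tested were past it, and nothing is read from this count. With only these groups in the fit, ARO4 alone of the 9, and 224 genes in all, were past it. All 4 shikimate genes were lower, by a median of -1.15, against -0.06 over all genes. The TRP3, TRP4, ARO1, ARO2, ARO3, ARO4 and ARO7 levels of H3T11A were below those of YBL574 in every replicate. The share of all genes with separate groups was not computed, so nothing is read from this either. GCN4 was at 694 and 722 RPKM in YBL574 and at 504 and 365 RPKM in H3T11A. Of 8 genes of tryptophan uptake and breakdown, 7 were lower and past the threshold, among them BNA1, whose product acts late in the kynurenine pathway (281 RPKM in YBL574 and 84.5 RPKM in H3T11A, means of 2).

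**Figure D4:**
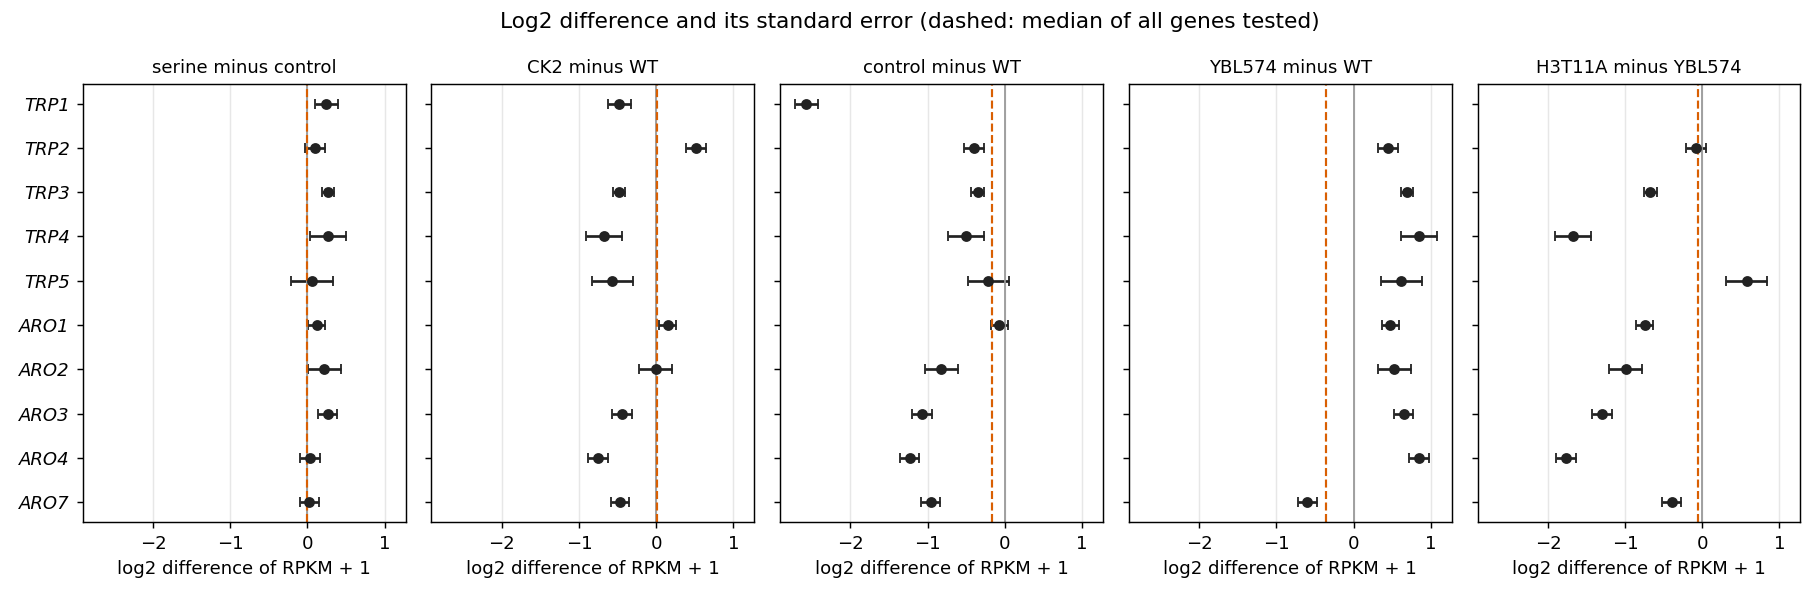
Log2 difference of RPKM + 1 for each gene in the 5 comparisons, with bars of 1 SE and a dashed line at the median of all genes tested. TRP1 is left out of the comparisons with YBL574, where it was at -5.16 and 5.91. In YBL574 minus WT 8 genes lie to the right of the dashed line, and in H3T11A minus YBL574 TRP2 lies at the dashed line, TRP5 to its right and the others to its left.

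The likeness of profiles was measured as the root-mean-square difference between log2(RPKM + 1) values centred on each gene's own mean over the 12 replicates. Within the pathway the closest pair was ARO3 and ARO4, at 0.235, followed by ARO2 and ARO3 at 0.274 and TRP3 and ARO1 at 0.322. TRP1 and TRP4 were the farthest apart, at 2.442. Outside the pathway, the genes closest to ARO4 were RPL4A (0.215), ADE8 (0.261) and HIS4 (0.29). Those closest to TRP2 were RAM1 (0.12), ADY2 (0.145) and SPO75 (0.163). Spread about the own mean was 0.751 for ARO4, 0.376 for TRP2 and 0.239 for ARO1. Genes that vary little give small values, so values of genes with unlike spread are not directly comparable. Each nearest gene is the smallest value over all tested genes outside the pathway.

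No gene came close to TRP1. The nearest were YDR008C at 1.227, URA1 at 1.315 and HSP82 at 1.331, against a spread of TRP1 about its own mean of 1.981. The nearest genes of the others were YFR035C for TRP3 (0.181), LYS20 for TRP4 (0.24), snR31 for TRP5 (0.188), CAB1 for ARO1 (0.106), YBT1 for ARO2 (0.195), HOM2 for ARO3 (0.214) and LOS1 for ARO7 (0.116). All profiles come from the same 12 replicates and share their groups and depths.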

How the data were processed

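The authors deposited a table of RPKM values (reads per gene length and read total) for 7125 genes in 16 libraries. The submitters' processing notes name CASAVA 1.8.2, TopHat2 2.0.13 and edgeR, and the sacCer3 build; whether counting used strand, and which reads the denominator holds, are not given in the sources used here. Since RPKM hides depth, read totals were fitted over 5988 genes as the totals that make RPKM times gene length whole, and 96.7% to 98.7% of values of at most 100 reads were within 0.1 of a whole number. Of the gene identifiers, 6079 (85.3%) matched the R64 annotation.

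Technical libraries were averaged. Genes that reached an RPKM of 1 in 2 or more replicates (6727, all 10 members included) were fitted as log2(RPKM + 1) with limma 3.58.1 (lmFit, eBayes with trend) in R 4.3.3, all 6 groups in 1 model without covariates, two-sided, with Benjamini-Hochberg adjustment over all genes tested. This scale understates changes of low genes. For YBL574 and H3T11A, no p-values are given. Replicate numbers follow the titles; the description of 1 CK2 library gives another number. The genes named are the 10 members, listed pathway neighbours that passed, and the nearest profiles. Alternatives were the groups alone, a pseudocount of 0.1, other filters and scalings, 1 technical library, each replicate left out and a replicate block. The members and lists were chosen with earlier results of these data known.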

Additional observations from a re-analysis of the deposited data

How the results depend on the processing

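Over the alternatives planned for each gene and comparison, 487 log2 differences kept their direction and side of the threshold, 44 no longer passed, 19 newly passed and 10 turned sign, and 51 of 56 counts of genes passing stayed within 1.5 times. The count in CK2 against WT fell without each replicate, and so did the number of genes called in all. The count in H3T11A against YBL574, 8, was 2 with the 2 groups alone, TRP1 included in both. Genes called in all went from 2740 to 224 of 6727 there, and nothing is read from these counts. Signs turned when a replicate was left out for ARO4 (-0.066 to 0.13) and ARO7 (-0.10 to 0.155) in serine, ARO2 in CK2 (-0.112 to 0.102) and TRP2 in H3T11A (-0.274 to 0.119). They also turned with upper-quartile scaling for ARO2 in CK2 (0.087) and TRP2 in H3T11A (0.019), and with median-of-ratios scaling for ARO1 in control against WT (0.088). The cause was not tested. In CK2 against WT 52.8% of called genes were higher, and 64.4% with upper-quartile scaling.

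With 2 replicates per group, same-numbered samples did not deviate together (Spearman's rho across genes -0.153 in serine and control, -0.011 in CK2 and WT, 0.008 in YBL574 and WT, 0.136 in control and WT). With the replicate block, 0 members passed in serine (0 genes in all, and likewise 0 with the crossed pairing, chosen after seeing the data). In CK2, 8 members passed, where 2591 of 6727 genes passed in all. In YBL574 against WT 10 passed, TRP1 included, and in control against WT 9. Without the block, 54.9% and 59.0% of all genes tested passed in those comparisons, and nothing is read from these counts. No replicate block was fitted for H3T11A against YBL574, because these groups share only replicate number 3. Genes near 1 RPKM, such as TRP1 in YBL574, rest on few reads.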
